A study of Mus musculus with 72 samples.

Results

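In the E1 line wild types, the hypothalamus of mice deprived of food for 72 h was compared with that of fed mice, in 7 of the 72 libraries of the series (4 fed and 3 fasted). The series knocked out conserved noncoding elements that had been tied to hibernation, one per line, named E1 to E5. The 7 libraries come from mice of the E1 line labelled wild type at the E1 element, all adult and of the B6 strain. Fasted mice had water throughout. The labels give neither their age in weeks nor their sex, and do not say whether animals were pooled. Members were chosen by label alone: every library labelled E1, wild type and fed, or E1, wild type and fasted for 72 h. The titles of the fourth fed and the third fasted library carry E1 where the other titles carry WT or 1, and the genotype label of both reads WT. Nothing in the labels says that the libraries of a group are separate mice apart from the mouse numbers in the titles, so p-values measure the spread between these libraries.

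The hypothalamus senses energy stores and sets food intake, body temperature and hormone output. In its arcuate nucleus, neurons that make neuropeptide Y (Npy) and agouti-related peptide (Agrp) drive feeding, and neurons that make proopiomelanocortin (Pomc) and Cart (Cartpt) restrain it. Long fasting lowers leptin and insulin, raises circulating glucocorticoids, moves fuel use from glucose to fatty acids and ketone bodies, and in mice lowers body temperature. Each of these changes has known transcriptional readouts, which are taken in turn here.

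Depth was 15558179 to 19816134 counts in the 7 libraries, and 21749 genes are listed per library. Levels below are in CPM, counts scaled to a common library total. Regional transcription factors of the hypothalamus were present in every library: Nkx2-1 was at 13.3 to 18.3 CPM in the fed and 10.5 to 18.5 CPM in the fasted mice, and Sim1 at 25.8 to 34.1 and 21.5 to 27.0 CPM, while Dlx1, Hmx2 and Hmx3 of the same list are listed at 0 in all 7. Markers of neighbouring tissue differed between libraries. The summed level of 20 genes of cortex and hippocampus was 2850 CPM in the third fasted library against 1353 to 1565 CPM in the other 6, and that of the skeletal muscle list was 825 CPM in the second fed library against 44.7 to 69.4 CPM elsewhere. In the batch label, which is 22687 for all 7, the number that follows is 1, 3 and 8 in fasted mice and 11 to 14 in fed mice. What it stands for is not given, and it cannot be told apart from feeding state. The mouse numbers in the titles also follow feeding state. They are lower in fasted than in all fed mice, except in the fasted library of high cortical markers, whose number is above the fed ones. Of the fasted libraries, that one lay closest to the fed mice in the ribosomal sum, red cell sum and gene length balance given below. The part of mouse number in the differences was not tested.

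Between the fed and the fasted libraries, 784 of 14877 tested genes differed at a Benjamini-Hochberg adjusted p under 0.05 in edgeR's quasi-likelihood test. Of the tested genes, 342 (2.3%) rose and the other called genes (2.97%) fell. These shares are the background for each gene group below, and the median log2 fold change over all tested genes was 0.0041. Most changes were moderate: the median absolute log2 fold change of called genes was 0.48, and 79 genes rose and 37 fell by more than 1 on the log2 scale. In 782 of the 784 called genes the fed and fasted CPM did not overlap, and that was so in 21.8% of all tested genes. The calls rest on the same libraries, so this is a description and no further support. The count depended on which libraries entered. It was 98 without the first fasted library, 114 without the second and 2566 without the third, the library of high cortical markers, and without that library 775 of the 784 genes were still called. The count was 334 without the second fed library, 435 without the third and 262 without the fourth, and without the first fed library 250 of the 784 genes were still called. Of 103 called genes named by the rules given with the processing, 29 stayed past the threshold under all 14 alternative analyses, 19 that rose and 10 that fell.

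**Figure D1:**
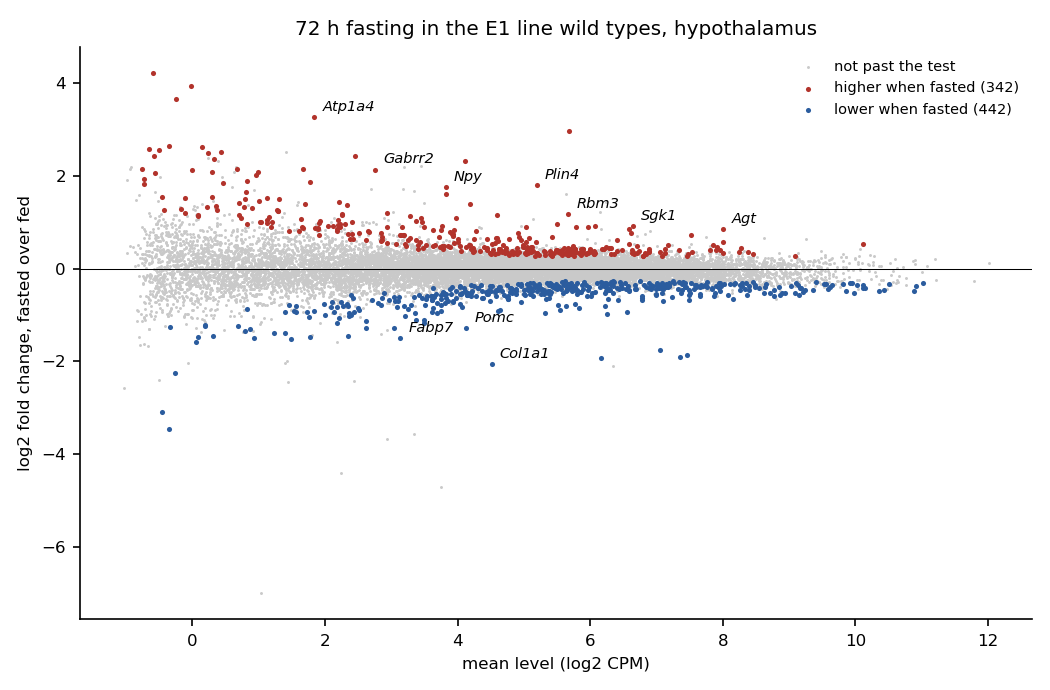
Log2 fold change (72 h fasted over fed) against mean level (log2 CPM) for 14877 genes in the E1 line wild types; red points rose (342), blue points fell, grey points did not pass the test. Atp1a4 is the labelled gene that rose most, and Col1a1 the labelled gene that fell most.

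The paired feeding peptides of the arcuate nucleus moved unequally. Npy, the orexigenic peptide, read 7.43, 7.72, 7.20 and 5.12 CPM in the 4 fed mice and 24.6, 15.8 and 30.5 CPM in the 3 fasted mice. Every fasted library lay above every fed one, and Npy rose 3.37-fold (log2 1.75, SE 0.21, adjusted p = 0.00526, edgeR). Pomc, the precursor of the anorexigenic peptide alpha-MSH, read 21.3, 27.6, 21.3 and 22.1 CPM in fed and 10.4, 7.01 and 11.5 CPM in fasted mice. It fell 2.44-fold (log2 -1.28, SE 0.16, adjusted p = 0.00563). In bulk tissue, fewer cells of a type and less RNA per cell cannot be told apart. The second fed library, with the highest Pomc, also held traces of pituitary hormones (Gh at 6.71 and Prl at 10.2 CPM, against at most 0.30 and 1.62 CPM in the other fed libraries). The fall of Pomc passed the test without that library too. In the fasted libraries Gh and Prl were at most 0.064 and 0.057 CPM. Of the same pituitary list, Tbx19 was at 1.10 to 1.64 CPM fed and 0.45 to 0.86 CPM fasted, without overlap. Chgb was the higher in fasted mice (138 to 151 against 124 to 134 CPM), and Cga, Pou1f1, Pitx1, Gnrhr and Ghrhr overlapped. The part of pituitary tissue in the fall of Pomc was not tested.

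Cartpt, which encodes the satiety peptide Cart, read 35.6, 44.4, 35.9 and 33.1 CPM in fed mice and 26.6, 25.4 and 24.5 CPM in fasted mice. It fell 1.49-fold (log2 -0.58, SE 0.10, adjusted p = 0.016), a call that was lost without the first or the second fasted library and in the model of all 15 E1 libraries. In bulk tissue the fall of Cartpt cannot be placed in a single nucleus. Agrp, which is made by the same neurons as Npy, read 7.37, 8.19, 6.88 and 8.99 CPM when fed and 5.10, 5.40 and 6.36 CPM when fasted. The groups did not overlap and the fasted values were the lower, but the difference missed the threshold (log2 -0.52, SE 0.15, adjusted p = 0.0666). It passed in 6 of the 14 alternatives, with adjusted p from edgeR or DESeq2 of 0.0244 to 0.194. The Agrp gene model spans 70.7 kb (chromosome 8, 105566698 to 105637393, mm10, minus strand) and overlaps Ctcf and Ripor1 on the other strand. Whether the counting used strand is not stated, so reads of these genes may be mixed.

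Hcrt, Pmch, Trh, Crh, Avp and Oxt, which are known from outside the arcuate nucleus, did not pass the test. Hcrt, the orexin precursor of the lateral hypothalamus, differed by log2 -0.27 (95% interval -0.58 to 0.04), and Pmch, the precursor of melanin-concentrating hormone, by -0.23 (-0.66 to 0.20). Among the releasing and posterior pituitary hormones, Trh differed by 0.08 (-0.13 to 0.29), Crh by 0.39 (-0.33 to 1.10), Avp by -0.33 (-0.58 to -0.08, adjusted p = 0.112) and Oxt by -0.18 (-0.61 to 0.26). Avp passed in 3 of the 14 alternatives (adjusted p 0.0272 to 0.356). Over the lists, 1 of 9 measured peptides that raise intake rose and 0 fell, and 0 of 13 that lower intake rose and 2 fell. Of 15 other hypothalamic peptides, a list that also holds Cartpt, 0 rose and 1 fell. The falls of that list were 0 without the first or the second fasted library and 3 without the third. None of 27 receptors of feeding circuits and none of 26 genes of leptin and insulin signalling passed edgeR's test. Their median log2 fold changes were -0.08 and -0.07. Lists without a call were not recounted under the alternatives. The leptin receptor Lepr read 14.3 to 16.4 CPM in fed and 13.7 to 15.5 CPM in fasted mice, groups that overlap.

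**Figure D2:**
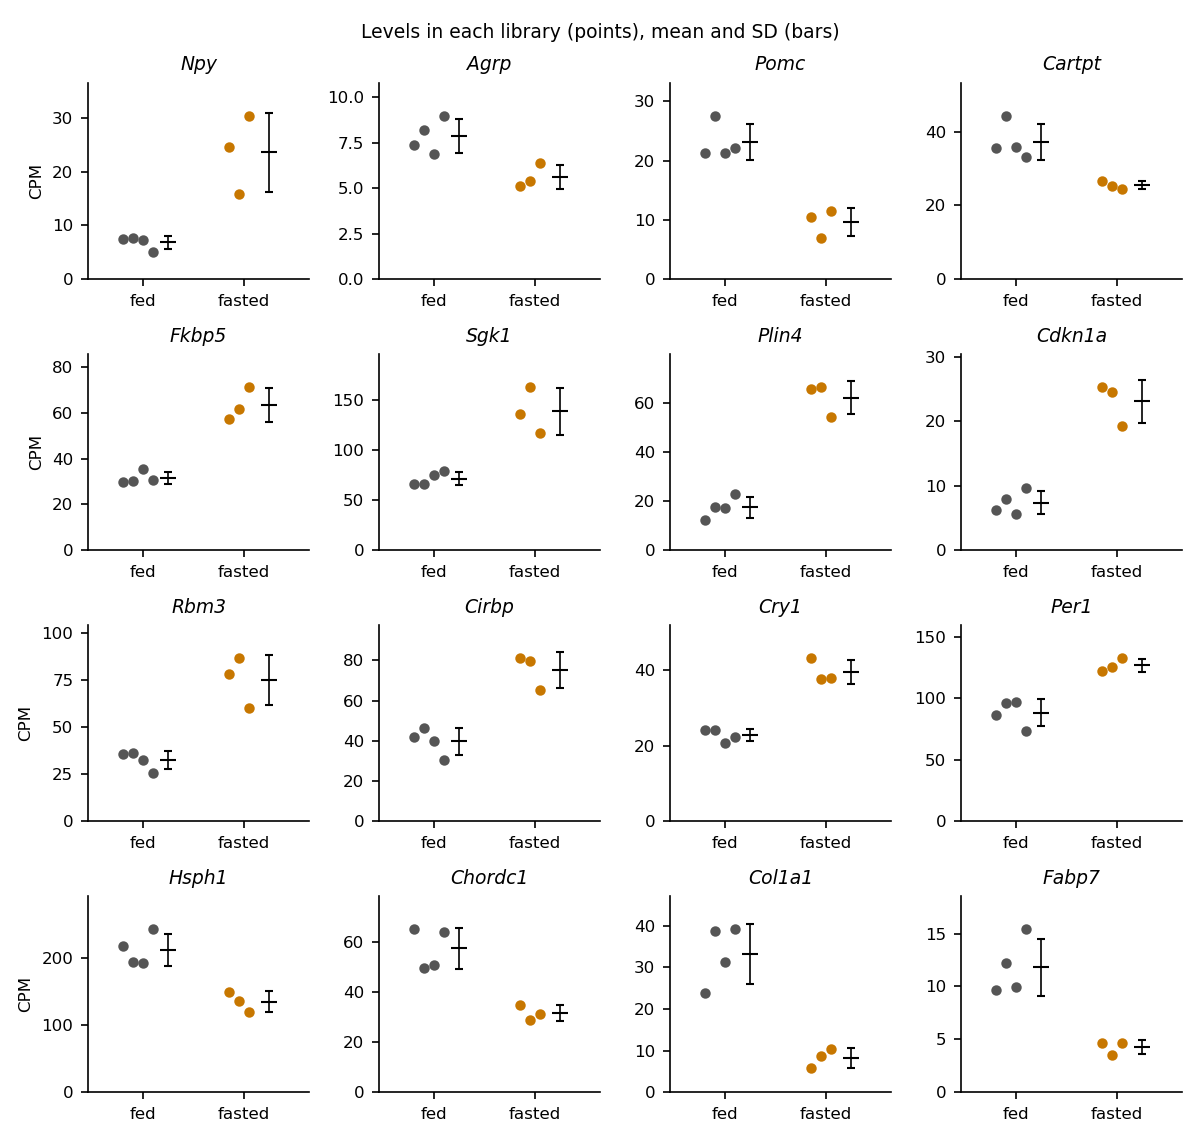
CPM of 16 genes in each fed (grey, n = 4) and fasted (orange, n = 3) E1 wild type library, with the mean and SD at the right of each group. Npy rose while Pomc and Cartpt fell, and the fasted values of Agrp lie just below the fed ones.

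Targets of the glucocorticoid receptor were the list with the most rises in edgeR's test of all 7 libraries. Ribosomal proteins had more with DESeq2 (19 against 17) and without the third fasted library (59 against 19). Of 29 measured targets 15 rose and 0 fell, 26 had a positive estimate, and the median log2 fold change was 0.49. The count was 8 without the first fasted library and 9 without the second. Fkbp5, a co-chaperone that restrains the receptor, read 29.8, 30.3, 35.7 and 30.6 CPM in fed and 57.3, 61.7 and 71.5 CPM in fasted mice (log2 0.97, SE 0.10, adjusted p = 0.00345). Sgk1, a kinase that the receptor induces, read 65.6, 66.3, 75.2 and 78.4 CPM fed and 136, 163 and 117 CPM fasted (log2 0.92, SE 0.12, adjusted p = 0.00568). All fasted libraries were above all fed libraries for both genes.

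The target with the largest rise was Plin4, a protein that coats lipid droplets. It read 12.2, 17.5, 17.3 and 22.8 CPM in fed and 65.6, 66.6 and 54.4 CPM in fasted mice, 3.47-fold higher (log2 1.80, adjusted p = 0.00253), and its gene overlaps Hdgfl2 on the other strand. Cdkn1a, the cell cycle inhibitor p21, rose 3.05-fold, from 5.61 to 9.62 CPM fed to 19.3 to 25.3 CPM fasted. Arrdc2, an arrestin-domain protein, rose 2.63-fold and Hif3a, a hypoxia-inducible factor subunit, 2.22-fold. Smaller rises were seen for the metallothionein Mt1 (log2 0.63), the NF-kappaB inhibitor Nfkbia (0.79), the mTORC1 inhibitor Ddit4 (0.66) and the transcription factors Klf15 (0.46) and Klf9 (0.35). Fkbp5, Sgk1, Plin4, Cdkn1a, Arrdc2, Hif3a and Mt1 were called under all 14 alternatives. The summed level of the list was 1558 to 1691 CPM in fed and 2070 to 2207 CPM in fasted mice, with no overlap.

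Promoter stretches in RefSeq (GRCm38.p6, the same build as mm10, 250 bases before to 50 after a start) were searched on both strands for AGAACA, a core recognition element of the glucocorticoid receptor. It was present for 3 of 14 called targets that have an entry and for 15.6% of the 11579 tested genes that have one. A match is a description of letters, and these windows leave out most of a gene's regulatory sequence.

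Of the RNA-binding proteins that are induced by mild cold, Rbm3 and Cirbp rose and were the called rises among 13 measured genes of their list. Both proteins are known to be raised when mammalian cells are cooled by a few degrees, and Rbm3 is linked to synapse maintenance in cooled and hibernating animals. Rbm3 read 35.9, 36.3, 32.4 and 25.7 CPM in fed and 78.0, 86.7 and 60.3 CPM in fasted mice (2.25-fold, log2 1.17, SE 0.14, adjusted p = 0.00526). Cirbp read 42.0, 46.4, 39.9 and 30.6 CPM fed and 81.2, 79.8 and 65.1 CPM fasted (1.86-fold, log2 0.89, SE 0.13, adjusted p = 0.0101). Fed and fasted values of both genes were far apart, and Rbm3 was called under all 14 alternatives, while Cirbp missed the threshold without the first fasted library (adjusted p = 0.0501). One member fell: Tra2a, a splicing regulator, read 90.6 to 106 CPM in fed and 59.9 to 71.1 CPM in fasted mice (log2 -0.67, adjusted p = 0.00548). The median of the list was 0.10. Body temperature is not among the labels.

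The distal end of the Cirbp promoter stretch is shown because it holds the letters TCCCCGCC, the core of an Sp1-binding element described for cold induction of this gene. It covers bases -250 to -191 from the start, chr10:80167589-80167648, plus strand, with the match in capitals. The same letters occur, on either strand, in 11.1% of the tested genes that have an entry.
Cirbp: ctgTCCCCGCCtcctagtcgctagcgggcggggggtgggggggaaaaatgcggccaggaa

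In the circadian clock, 4 of 21 measured genes rose and 0 fell, with a median log2 fold change of 0.12. Per1, Cry1 and Cry2 belong to the negative limb, in which Per and Cry proteins repress the activators Clock and Bmal1, and Tef is an output factor. Cry1 read 24.2, 24.0, 20.8 and 22.3 CPM in fed and 43.2, 37.7 and 37.9 CPM in fasted mice (log2 0.76, SE 0.08, adjusted p = 0.00373). Cry2 read 40.8 to 47.8 CPM fed and 61.4 to 67.0 CPM fasted (log2 0.50, adjusted p = 0.0118). Per1, which is also a glucocorticoid target, read 73.2 to 97.0 CPM fed and 122 to 133 CPM fasted (log2 0.49, adjusted p = 0.0248). Tef, a PAR bZIP output factor, read 205 to 224 CPM fed and 285 to 298 CPM fasted (log2 0.40, adjusted p = 0.0118). The 3 fasted libraries stood above the 4 fed ones in each. The time of day at which tissue was taken is not among the labels, so feeding state and sampling time cannot be told apart here. Of these genes, 2 were called without the first fasted library and 1, Cry1, without the second.

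Clock and Bmal1 bind the E-box CACGTG, a palindrome. The promoter stretches of Cry1, Per1 and Tef hold it and that of Cry2 does not, which makes 3 of 4 called clock genes and 4 of 16 measured ones with an entry. Among all tested genes with an entry, 11% hold it, and among those that rose in fasting 9.39%. The 60 bases around it are given 5′ to 3′ with the E-box in capitals: Cry1 from -90 (chr10:85185085-85185144, minus strand), Per1 from -196 (chr11:69098753-69098812, plus strand) and Tef, which has 2 starts, from -157 of each (chr15:81802516-81802575 and chr15:81811257-81811316, plus strand).
Cry1: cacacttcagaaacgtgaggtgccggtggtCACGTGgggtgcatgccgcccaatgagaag
Per1: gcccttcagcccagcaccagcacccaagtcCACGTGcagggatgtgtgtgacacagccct
Tef, first start: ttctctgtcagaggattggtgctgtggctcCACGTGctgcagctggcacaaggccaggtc
Tef, second start: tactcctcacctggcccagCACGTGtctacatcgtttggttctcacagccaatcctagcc

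Chaperones went down where they changed. Of 26 heat shock chaperones 0 rose and 3 fell, 21 had a negative estimate, and the median log2 fold change was -0.16. Chordc1, a co-chaperone of Hsp90, read 65.2, 49.7, 50.8 and 64.1 CPM in fed and 34.9, 28.7 and 31.3 CPM in fasted mice (1.86-fold lower, log2 -0.89, SE 0.12, adjusted p = 0.0066). Hsph1, a nucleotide exchange factor for Hsp70, read 218, 193, 193 and 243 CPM fed and 150, 136 and 119 CPM fasted (log2 -0.68, SE 0.11, adjusted p = 0.0122). Cryab, a small heat shock protein abundant in oligodendrocytes and astrocytes, read 43.1 to 62.2 CPM fed and 20.7 to 30 CPM fasted (log2 -0.95, adjusted p = 0.0149), and overlaps Hspb2 on the other strand. In the endoplasmic reticulum list 0 of 26 rose and 3 fell, with a median of -0.07: the calcium-binding chaperone Calr (log2 -0.45), the disulfide isomerase Pdia4 (-0.47) and the Hsp40 partner Sdf2l1 (-0.82). Without the second fasted library 1 heat shock gene and 0 of these 3 passed the test.

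Heat shock factor 1 binds repeats of GAA in alternating orientation, and GAANNTTC is a dyad of them. It was present for both called heat shock genes that have an entry, Chordc1 and Hsph1, for 11 of 21 measured members with an entry and for 7.1% of all tested genes with one. In Hsph1 it lies after the start. Chordc1 is shown because it holds 2 such dyads across its start, in capitals, from base -44 to base 15 (chr9:18292223-18292281, plus strand).
Chordc1: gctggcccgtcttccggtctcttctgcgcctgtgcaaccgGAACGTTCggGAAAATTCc

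Genes of fuel use changed in both directions. In the list for fat and ketone use 2 of 35 rose and 4 fell, and the median log2 fold change was 0.05. Pnpla2, the lipase that starts triglyceride breakdown, rose by log2 0.67, from 16.3 to 20.4 CPM fed to 26.0 to 34.2 CPM fasted. In the other direction, the brain fatty acid-binding protein Fabp7 read 9.65, 12.3, 9.94 and 15.4 CPM fed and 4.64, 3.54 and 4.64 CPM fasted (2.82-fold lower, log2 -1.50, SE 0.20, adjusted p = 0.00581). Smaller falls were called for Oxct1, which starts ketone body use (log2 -0.36), the monocarboxylate transporter Slc16a7 (-0.45) and the lipid droplet coat Plin2 (-0.63), opposite in direction to Plin4. Without the first or the second fasted library, 0 members of this list rose and 1, Fabp7, fell.

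Glucose and anabolic lists held few calls. One of 33 genes of glucose uptake and glycolysis rose: Slc2a4, the insulin-responsive transporter GLUT4, which read 0.659, 2.80, 1.02 and 1.52 CPM in fed and 5.45, 6.04 and 5.73 CPM in fasted mice (3.68-fold, log2 1.88, SE 0.35, adjusted p = 0.0186). One fell, the muscle-type glycogen synthase Gys1 (log2 -0.35). In fatty acid synthesis 0 of 24 rose and 2 fell: Elovl6, an elongase of saturated fatty acids (127 to 134 CPM fed, 97.0 to 104 CPM fasted, log2 -0.41), and Ugt8a, which makes myelin galactolipids (log2 -0.84). In cholesterol synthesis 1 of 25 fell, the sterol dehydrogenase Nsdhl (-0.31), and 0 rose. Under autophagy and FoxO targets, the mitophagy kinase Pink1 rose (log2 0.48) as did Klf15, and Tfeb, a master factor of lysosome genes, fell (-0.45). The amino acid response list held 2 rises, Ddit4 and the leucine sensor Sesn2 (log2 0.51), and 1 fall, the cystine transporter Slc7a11 (-0.52). Most of these calls depended on the libraries included. All of them were lost without the first fasted library, and all but that of Slc7a11 without the second. Without the third fasted library, 8 glucose, 5 autophagy and 7 amino acid response genes rose. The rise in the glucose list was also lost without the third or the fourth fed library, and both amino acid response rises without the first or the fourth. The single falls of the glucose and cholesterol lists were lost without any 1 fed library, and both autophagy rises and the fall of Tfeb without the first.

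Within the thyroid hormone axis 3 of 16 genes rose and 1 fell. Hr, a corepressor that thyroid hormone induces in brain, read 39.5, 45.6, 51.7 and 54.6 CPM in fed and 99.8, 105 and 73.1 CPM in fasted mice (log2 0.92, SE 0.14, adjusted p = 0.0118). The receptor Thra (log2 0.31), which overlaps Nr1d1 on the other strand, and Klf9 (0.35) rose less. Trhde, which degrades thyrotropin-releasing hormone, fell by 0.39 on the log2 scale. None of these 4 calls held without the first or the second fasted library. Growth hormone and IGF axis (20 genes) and interferon-stimulated genes (26) had 0 calls with edgeR in either direction. Among immediate early genes Jund rose (log2 0.32) and Egr1, a marker of recent neuronal activity, fell (-0.49) of 27 measured. Jund passed in 6 and Egr1 in 7 of the 14 alternatives; 0 members rose when any library but the third fasted one was left out, and 3 rose and 6 fell without that one. Serpina3n, an acute phase protein of reactive astrocytes, rose by 0.63, from 18.2 to 27.0 CPM fed to 33.6 to 35.2 CPM fasted, and passed in 10 of the 14 alternatives.

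**Figure D3:**
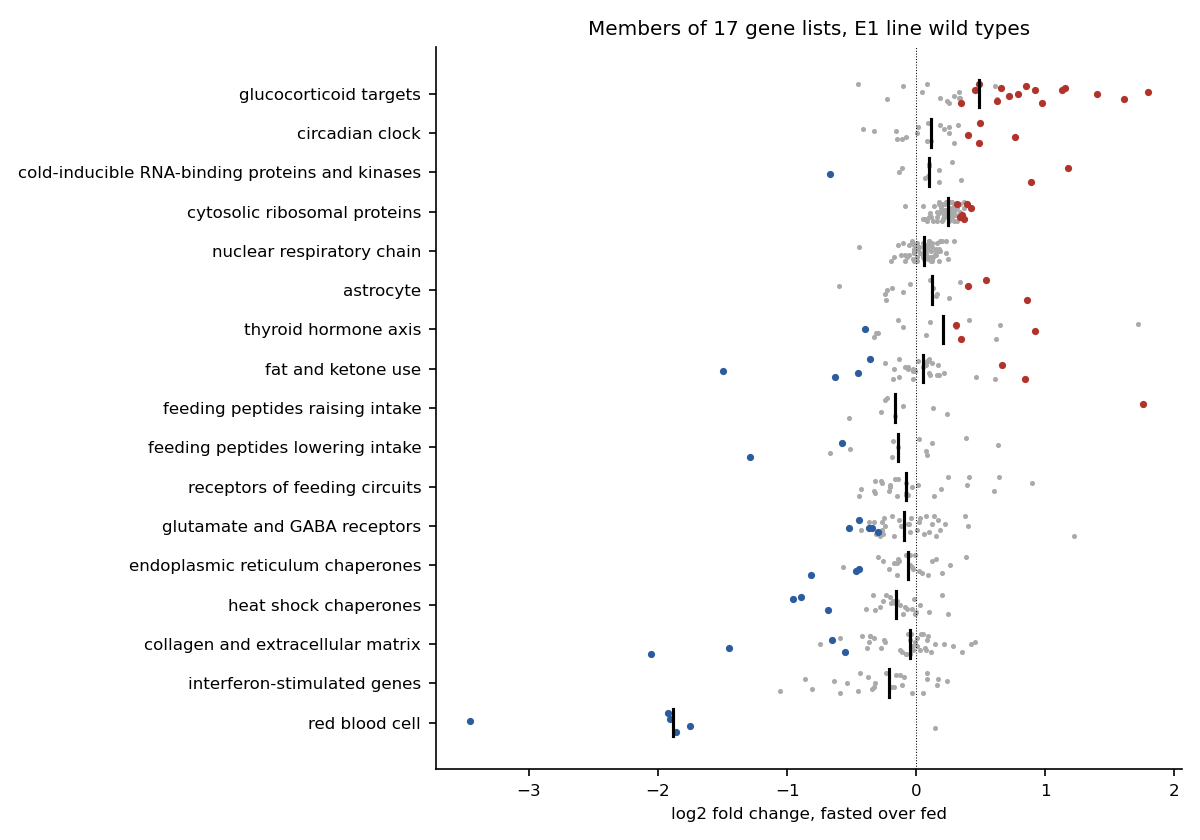
Log2 fold change (fasted over fed) of each measured member of 17 gene lists; red members rose, blue members fell, grey members did not pass the test, and the black bar is the median. The 15 rises of the glucocorticoid list and the mostly positive estimates of ribosomal proteins stand beside lists with few calls.

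Estimates for ribosomal protein transcripts were small and mostly positive. Of 72 measured, 71 had a positive estimate, the median was 0.24 on the log2 scale, and 6 passed the test (Rps14, Rps18, Rpl3, Rpl7a, Rpl10a and Rpl32, log2 0.32 to 0.43), several with overlapping genes on the other strand or processed copies elsewhere that share their reads. Their summed level was 6119 to 6485 CPM in fed mice and 8295, 7957 and 6675 CPM in fasted mice, with the third fasted library closest to the fed ones. The balance of long against short genes described below was likewise closest to the fed mice in the third fasted library (-0.01, against -0.16 and -0.20 on the log2 scale in the other two and 0.07 to 0.10 in the fed mice), and its part in the ribosomal values was not tested. The number of called members was 59 without the third fasted library and 0 without the first or the second fasted, or without the first, the second or the fourth fed library. Nuclear genes of the respiratory chain had 51 of 74 estimates above 0, a median of 0.06, and 0 calls with edgeR. Their summed level was 4336 to 4849 CPM in fed mice and 5272, 5526 and 4295 CPM in fasted mice. The groups overlapped through the third fasted library.

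The largest changes outside these lists involved genes of low level. Atp1a4, a sodium pump subunit known from sperm, read 0.659, 1.22, 0.51 and 0.47 CPM in fed and 6.41, 6.88 and 8.2 CPM in fasted mice, a 9.64-fold rise (log2 3.27, SE 0.27, adjusted p = 0.00204). Gabrr2, the rho2 subunit of GABA-A receptors, read 2.52, 2.91, 2.29 and 2.87 CPM fed and 12.5, 14.1 and 9.28 CPM fasted (4.4-fold, adjusted p = 0.00204). The groups were widely separated for both. Otoa, which encodes a protein of inner ear gels, rose 4.46-fold and Itgad, a leukocyte integrin subunit that overlaps Cox6a2, 5.41-fold. Atp1a4, Gabrr2, Otoa and Itgad were called under all 14 alternatives. Sspo, the subcommissural organ protein SCO-spondin, read 5.57 to 7.11 CPM fed and 21.5, 66.7 and 8.60 CPM fasted, and its log2 fold change of 2.32 (adjusted p = 0.037) was 1.24 (adjusted p = 0.0875) without the second fasted library.

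Further rises among the 15 largest were Klra2, Vmn2r56, Vmn2r1, Cyp3a13 and Kirrel2 (log2 1.39 to 1.53). The first 4 belong to gene families, and reads may be split between members that are alike. The 15 largest falls likewise held Hist1h1d (log2 -1.51), Xlr3a (-1.39), Fbxw15 (-1.28) and Zfp808 (-1.18) from such families, and Mpp4 (-1.47) and Ccdc163 (-1.39), which overlap other genes on the same strand. Trp63, the p53 relative known from epithelia, fell by log2 -1.17. Top2a, a topoisomerase of dividing cells, read 0.828 to 1.10 CPM fed and 0.0573 to 0.151 CPM fasted (adjusted p = 0.00563), a level of few counts, while the cell cycle list as a whole had 1 rise (Cdkn1a), 1 fall and a median of 0.02 over 21 genes.

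Red cell transcripts fell in fasted mice. Of 6 measured red cell genes 5 fell, and the median log2 fold change was -1.88. Hba-a1 read 146, 330, 203 and 327 CPM in fed and 44.1, 34.6 and 134 CPM in fasted mice (log2 -1.86, SE 0.46, adjusted p = 0.0459), and Hba-a2, Hbb-bs and Hbb-bt fell by 1.75 to 1.92. These globin genes are near-identical pairs, so reads cannot be assigned with certainty. Slc4a1, the anion exchanger of red cells, was at 0.479 to 2.06 CPM fed and 0.0643 to 0.115 CPM fasted. The summed list was 517 to 1099 CPM fed and 199.1, 169 and 477 CPM fasted, so that the third fasted library lay just below the lowest fed one. Without the first or the second fasted library, or the second, the third or the fourth fed library, 0 of these genes passed the test.

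Some collagen genes of connective tissue fell as well: 4 of 42 matrix genes fell and 0 rose, with a median of -0.05. Of the 42 estimates, 16 were positive and 26 negative. The summed level of the matrix list was 3218 to 3441 CPM in fed and 3721, 3867 and 3307 CPM in fasted mice. Col1a1, the main chain of fibrillar collagen, read 24.0, 38.6, 31.2 and 39.2 CPM in fed and 5.75, 8.68 and 10.3 CPM in fasted mice (4.15-fold lower, log2 -2.05, SE 0.22, adjusted p = 0.00368). Its partner Col1a2 fell less (log2 -0.65), Col3a1 by log2 -1.45 with groups that touched (3.53 CPM in one fed and 3.54 CPM in one fasted library), and Col27a1 by -0.55. Meningeal and perivascular fibroblast markers include the first 3 of these; their summed level overlapped between groups (226 to 705 CPM fed, 465 to 719 CPM fasted). Of the 15 measured genes of that list, 14 had negative estimates, with a median of -0.52. Without the first or the second fasted library, 1 matrix gene, Col1a1, fell.

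Among glia, 3 of 16 astrocyte genes rose and 0 fell. Agt, angiotensinogen, which astrocytes secrete, read 185, 178, 198.8 and 191 CPM in fed and 388, 380 and 281 CPM in fasted mice (log2 0.86, SE 0.11, adjusted p = 0.00586). Glul, glutamine synthetase, read 816 to 1143 CPM fed and 1174 to 1530 CPM fasted (log2 0.54, adjusted p = 0.0446), and the growth factor receptor Fgfr3 rose by log2 0.40. The astrocyte sum overlapped between groups (5792 to 6796 and 6160 to 7287 CPM), and 1 member, Agt, was called without the first or the second fasted library. In oligodendrocyte precursors Mycl rose (log2 0.70) and Sox6 (-0.55) and Lhfpl3 (-0.35) fell. Mycl and Sox6 were called under all 14 alternatives and Lhfpl3 under 6. Of 22 genes of mature oligodendrocytes 2 fell, among them Ugt8a, an enzyme of myelin lipid synthesis, and 0 fell without the first fasted library. Of the 22 estimates 11 were positive, with a median of 0.01. The oligodendrocyte sum overlapped between groups (3952 to 6195 CPM fed, and 5280, 7012 and 3624 CPM fasted). Fcrls, a receptor specific to microglia, read 9.41, 10.4, 11.5 and 11.6 CPM fed and 4.74, 4.56 and 4.18 CPM fasted (log2 -1.29, SE 0.14, adjusted p = 0.00368), while F13a1 of macrophages rose by 0.51 and passed in 8 of the 14 alternatives. The microglia list sum overlapped (257 to 298 and 254 to 276 CPM), and 14 of its 17 measured genes had negative estimates.

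Other cell lists moved in single genes. Of 16 tanycyte and ependymal genes Nes (log2 -0.68) and Tmem212 (-0.97) fell, of 21 endothelial genes Itm2a fell (-0.61), and of 12 choroid plexus genes Kcne2 rose from at most 0.37 CPM to 0.90 to 1.83 CPM. The tanycyte and endothelial calls were lost without the first or the second fasted library, and that of Kcne2 without the first. Those of tanycytes were also lost without the first fed library, and that of Itm2a without the second or the fourth. Markers of neighbouring brain regions held few calls. Of 17 striatal genes Ppp1r1b rose and Foxp1 and Rarb fell; without the first or the second fasted library 0 striatal genes passed, the rise was also lost without any 1 fed library, and both falls without the second, the third or the fourth. In the thalamus list 15 of 19 estimates were positive (median log2 0.13) with 0 calls by edgeR. In the list for cortex and hippocampus 17 of 20 were positive, with a median of 0.59. Slc17a7, the vesicular glutamate transporter of cortex and thalamus, was the only called gene of the 20 for cortex and hippocampus, and it read 8.75, 6.71, 27.6 and 8.47 CPM fed and 26.3, 45.2 and 238 CPM fasted. The groups overlap. Its log2 fold change was 2.98 (adjusted p = 0.0459) with the third fasted library, whose cortical marker sum was high, and 1.45 (adjusted p = 0.0456) without it. It passed in 8 of the 14 alternatives. The call was lost without the first or the second fasted library, without the first, the second or the fourth fed library (adjusted p up to 0.122), and without the third fasted and second fed libraries together (log2 1.23, adjusted p = 0.0721).

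Genes that fell were long. The median span of the genes that fell was 91.0 kb, against 17.04 kb for the 342 that rose and 27.0 kb for all tested genes (GENCODE M21 models). Of those that fell, 49.1% spanned more than 100 kb, and of all tested genes 16.2% did. Among 982 genes over 200 kb, 15.8% fell and 0.407% rose; among 4638 genes of 5 to 20 kb, 1.49% fell and 3.34% rose. The median log2 fold change moved from 0.06 in that shorter class to -0.22 in the longest class. GC content of transcripts differed less, with medians of 47.9% for falls, 52.1% for rises and 49.7% overall.

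Receptor genes for glutamate and GABA are examples of such long genes. Of 38 measured members of their list, 0 rose and 5 fell, and 1, Gabrg3, fell without the first or the second fasted library. Gabrr2, the GABA-A receptor gene whose rise is given above, is not in that list. Gabrg3, the gamma3 subunit of GABA-A receptors, spans 670.7 kb and read 629, 638, 643 and 581 CPM in fed and 455, 414 and 460 CPM in fasted mice (log2 -0.52, SE 0.07, adjusted p = 0.00816). The metabotropic receptors Grm7 (921.7 kb, log2 -0.44) and Grm8 (860.1 kb, -0.34), the kainate receptor Grik1 (394.4 kb, -0.37) and Gabrb1 (490.9 kb, -0.29) fell by similar amounts. Sox6 (567.9 kb) and Foxp1 (597.4 kb) are long too. Within each library, the median level of genes over 100 kb minus that of genes up to 20 kb, relative to the mean of the 7 libraries, was 0.07 to 0.10 (log2) in the fed mice and -0.16, -0.20 and -0.01 in the fasted mice. The files do not separate reads of introns from reads of exons, and the part of unspliced RNA or RNA quality in this difference was not tested.

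**Figure D4:**
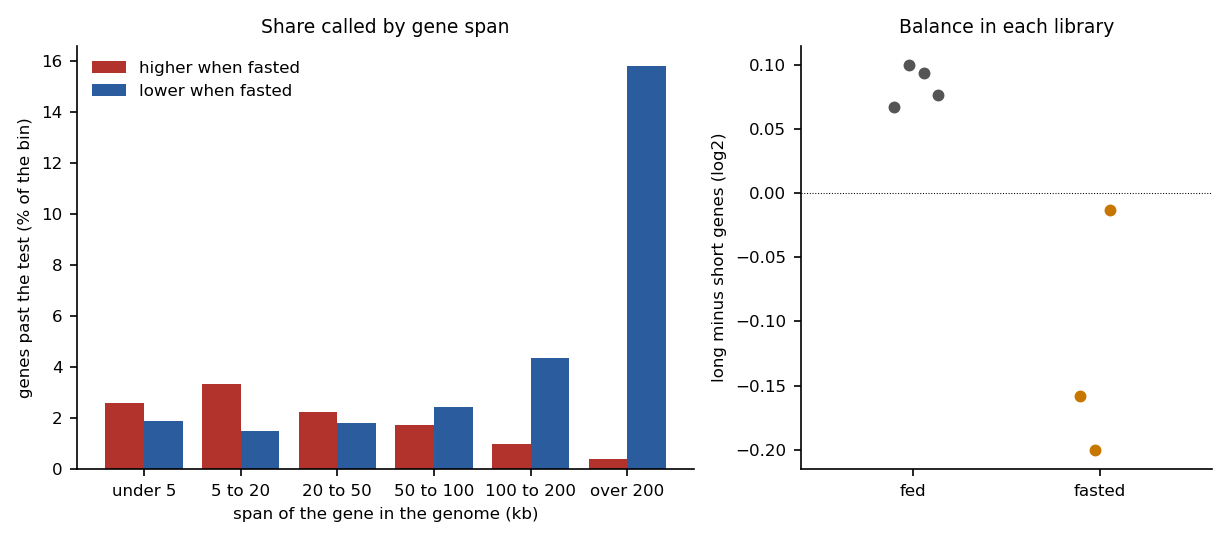
Left, share of tested genes that rose (red) or fell (blue) in fasting, by the span of the gene in the genome (kb). Right, median log2 level of genes over 100 kb minus genes up to 20 kb in each library, relative to the mean of the 7; the 3 fasted libraries lie below the 4 fed ones.

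Knockouts of the E1 element, 4 fed and 4 fasted mice of the same line and batch label, share no library with the wild types and were fitted separately. The number after the batch label is lower in every fasted than in every fed knockout, the same order as in the wild types. Their mouse numbers are ordered likewise. Neither can be told apart from feeding state in the knockouts, so a difference tied to them could be shared by both genotypes. That was not tested. There 18.3% of 14807 tested genes rose and 16.6% fell. Of 780 genes called in the wild types and tested in the knockouts, 773 (99.1%) had the same direction, against 77.4% of all genes tested in both, and 663 were called in that direction (84.6% of the wild type calls, 12.8% of the knockout calls). The median log2 fold change of the genes that rose was 0.51 in the wild types and 0.56 in the knockouts, and of those that fell -0.47 and -0.49. Npy rose by log2 1.15 in the knockouts, Pomc fell by 1.55, Rbm3 rose by 1.5 and Plin4 by 1.61. Agrp, which missed the threshold in the wild types, fell there (log2 -0.76, adjusted p = 0.00211). Of 27 receptors of feeding circuits 3 rose and 6 fell in the knockouts. Of 26 genes of leptin and insulin signalling 4 rose and 6 fell. Ribosomal proteins had 69 rises of the list and a median of 0.47. Nuclear genes of the respiratory chain had 48 rises of 74, 1 fall and a median of 0.29 in the knockouts. Some lists with few calls leaned the other way there. Of 17 microglia genes 14 had positive estimates in the knockouts (median 0.17), as had 9 of 15 fibroblast and 17 of 26 heat shock genes, where most were negative in the wild types. Of 22 mature oligodendrocyte genes 12 rose and 1 fell in the knockouts (median 0.46). The thalamus list had 16 rises of 19 and 1 fall there (median 1.17). Of 22 hypothalamic regional factors 2 had positive estimates there (median -0.37), and 7 in the wild types (median -0.17). The part of regional composition was not tested.

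The difference between the genotypes in their response was tested with edgeR as the interaction over all 15 E1 libraries. No gene of 15222 passed (0% called), and 1233 had an unadjusted p under 0.05; DESeq2 also called 0. The smallest adjusted p was 0.596. The genes of smallest p were Coq7, Fam71d, Kir3dl2, Tacr1 and Tcerg1l. Tcerg1l, for example, fell by log2 0.71 in the knockouts and differed by -0.29 (-0.50 to -0.08) in the wild types. For Cartpt the estimates were -0.58 in wild types and 0.34 in knockouts, and for Col1a1 -2.05 and -0.64, without the interaction passing for either (adjusted p = 0.596 for both).

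**Figure D5:**
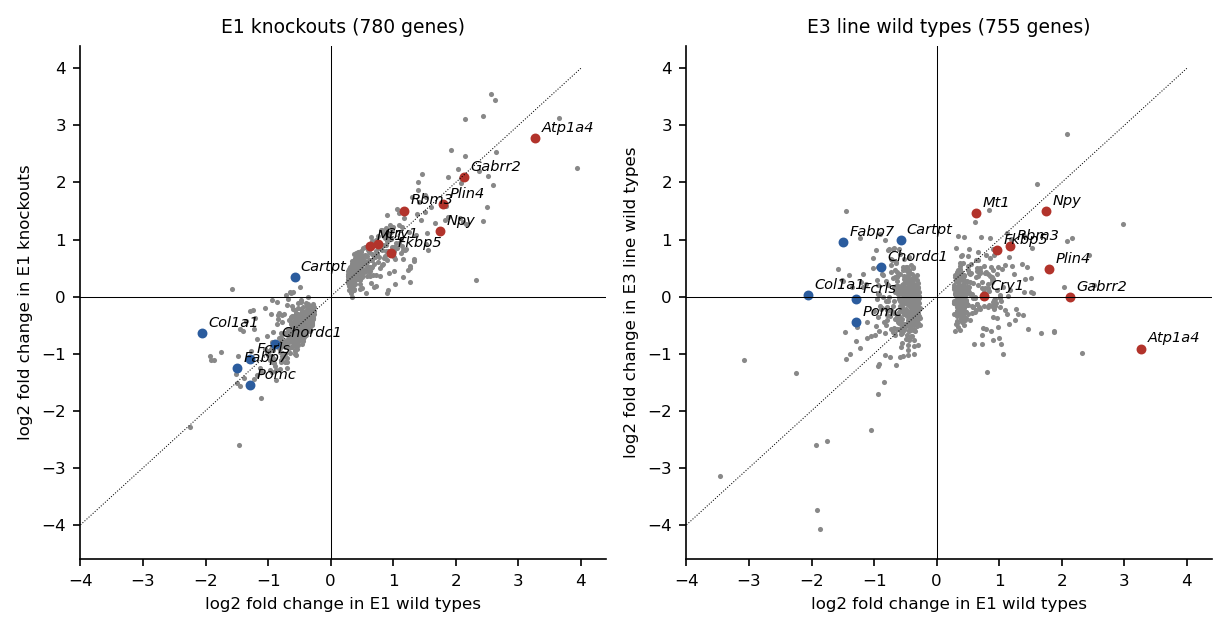
Log2 fold change (fasted over fed) of the genes called in the E1 wild types, plotted against the same quantity in the E1 knockouts (left) and in the E3 line wild types (right); the dotted line marks equal values. Points on the left follow the line, and on the right they spread across the horizontal axis.

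Wild types of the E3 line, 3 fed and 3 fasted for 72 h, share no library with the E1 mice and carry another batch label (18854). They also differ in the Y-linked gene Ddx3y, which read 69.8 to 136 CPM there and at most 0.0643 CPM in the 7 E1 libraries. Line, batch and sex as read from Ddx3y cannot be told apart. The number after the E3 batch label is 1, 2 and 5 in fed and 7, 9 and 10 in fasted mice, the reverse of the order in E1. It cannot be told apart from feeding state in either line, nor from the difference between the lines. In E3, 11.5% of 14534 tested genes rose and 8.43% fell, 2891 in all. The count was 1543 without the first and 1791 without the third fasted library, 1029 without the second and 902 without the third fed library. Of 755 genes called in E1 wild types and tested in E3, 440 (58.3%) had the same direction, against 54.7% of all genes tested in both; 105 were called in that direction (13.4% of the E1 calls, 3.63% of the E3 calls) and 26 in the opposite one. Across all genes the log2 fold changes of E1 wild types had a Pearson correlation of 0.688 with those of E1 knockouts and 0.124 with those of E3 wild types, as a description, since genes are not independent replicates.

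The difference between the 2 lines was itself tested over 13 libraries: of 15159 genes, 6.15% had a higher and 6.99% a lower response in E3, 1992 in all. It was 1153, 1210 and 1189 without the first fed, the second fasted and the fourth fed E1 library, and 1237 and 1229 without the second and the third fed E3 library. The glucocorticoid targets Fkbp5 (E3 log2 0.81), Sgk1 (0.74) and Cdkn1a (1.97), and also Npy (1.5) and Rbm3 (0.88), rose in both lines, and their line difference did not pass. Over the glucocorticoid list, E3 had 16 rises of 29 and a median of 0.60. The line difference passed for 4 of the 29: Plin4 (E3 log2 0.48, adjusted p = 0.0966; difference -1.35, adjusted p = 0.00977), Per1 and Klf15 had the smaller response in E3, and Mt1 (difference 0.79, adjusted p = 0.00438) the larger. Pomc differed by -0.45 in E3 (adjusted p = 0.251) and its line difference had an adjusted p of 0.0779.

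The line difference also passed for genes of other lists. The 4 clock genes that rose in E1 had E3 estimates of 0.01 (Cry1), -0.31 (Cry2), -0.12 (Per1) and -0.14 (Tef), and the line difference passed for each (adjusted p = 0.00613, 0.00577, 0.0134 and 0.00821). Chordc1 rose in E3 (log2 0.52) against its fall in E1, a difference of 1.37 (adjusted p = 0.00146), and Sdf2l1 did likewise (1 in E3, difference 1.78). Fabp7 rose in E3 (0.96) against its fall in E1 (difference 2.42, adjusted p = 0.00124), and Cartpt rose there (0.99, difference 1.53, adjusted p = 0.00694). Atp1a4 and Gabrr2, which rose in E1, had E3 estimates of -0.91 and -0.01 (differences -4.22 and -2.18, adjusted p = 0.00154 and 0.00465). Pmch, which did not pass in E1, rose in E3 by log2 1.67 (difference 1.87, adjusted p = 0.00371). Ribosomal proteins had 65 rises of 72 in E3 with a median of 0.78, and 32 of the list passed the test of the line difference. Nuclear genes of the respiratory chain had 48 rises of 74 in E3 with a median of 0.59, and 35 passed that test.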

How the data were processed

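RNA of mouse hypothalamus was sequenced, and the authors deposited raw counts per Ensembl gene with no normalization, the fed and the fasted libraries in separate tables of 21749 genes. HISAT2, Bowtie2, edgeR and mm10 are named in the submitters' processing notes; the counting tool, its use of strand and versions are not given in the sources used here. All count columns matched a library (0 left over), and 0 pairs of libraries were identical. Fits used edgeR 4.0.16 (R 4.3.3): TMM normalization, filterByExpr (minimum count 10, minimum total 15), the quasi-likelihood test, and Benjamini-Hochberg adjustment over all tested genes. SEs are the log2 fold change over the root of F, and intervals are 95%. Tests on simulated data covered edgeR fits of fasting and of the line by feeding term. They did not cover the genotype by feeding term or every other step. Gene spans and GC content came from GENCODE annotation of mm10 and promoters from RefSeq. Members and lists (28 for pathways, 19 for cells) were chosen with earlier results of these data known, and motifs after the calls were seen.

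Genes were named by rule: the 15 largest changes per direction among called genes whose groups did not overlap (minimum mean level 1 on the log2 CPM scale, predicted models left out); per direction up to 6 called members of a pathway list and 4 of a cell list; 15 genes whatever their result; and the 5 of smallest p per interaction. Gh, Prl, Ddx3y and regional markers stand outside it. Alternatives were RLE normalization, DESeq2 1.42.0, no filter, edgeR's likelihood ratio test, a GC offset, all 15 E1 libraries in 1 model, and each library left out. Some genes chosen this way are left out and not reported here.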

Additional observations from a re-analysis of the deposited data

Results flagged for a closer look

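In the group of 4 fed libraries, 12 of 167 tested values had 1 library that lay far from the other 3; chance gives about 1 in 20. The third fed library was the highest for Dynlrb1 (59 CPM, next 53.9), Fkbp5 (35.7, next 30.6), Plin2 (10.1, next 7.98), Rpl7a (113, next 102) and Slc17a7 (27.6, next 8.75). The fourth was the highest for Glul (1140 CPM, next 872) and Trp63 (7.58, next 5.28). The second was the highest for Pomc (27.6 CPM, next 22.1) and for the summed skeletal muscle list (825 CPM, next 54.2). The first was the highest for Rps14 (107 CPM, next 101) and the lowest for Hif3a (12.2 CPM, next 16.5) and Lepr (14.3 CPM, next 16.2). Groups of 3 fasted libraries were not tested.

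The response to fasting differed between the E3 and the E1 wild types for 49 of 120 named genes, by the line by feeding term in edgeR. Line, batch, sex and the number after the batch label cannot be told apart in it. Over all 15159 genes, 6.15% had a higher and 6.99% a lower response in E3. The named genes are no fair sample of these: most were chosen as E1 calls, and Dynlrb1, Fabp7, Gm2007, Stard9 and Timm8b for their small p in this very term. The values that follow are log2 responses in E3 minus those in E1. They were positive for 30 genes, Col3a1 2.91, Fabp7 2.42, Col1a1 2.05, Pmch 1.87, Sdf2l1 1.78, Hist1h1d 1.77, Tmem212 1.74, Xlr3a 1.74, Cartpt 1.53, Trp63 1.53, Chordc1 1.37, Zfp808 1.31, Gm2007 1.30, Timm8b 1.24 and Cryab 1.20. Smaller positive differences were those of Fcrls 1.20, Dynlrb1 1.11, Plin2 0.929, Pdia4 0.861, Slc7a11 0.854, Calr 0.84, Hsph1 0.821, Mt1 0.795, Trhde 0.748, Itm2a 0.741, Tra2a 0.709, Rpl32 0.694, Slc16a7 0.556, Rpl10a 0.496 and Oxct1 0.397. They were negative for 19 genes, Atp1a4 -4.22, Sspo -3.37, Slc2a4 -2.52, Gabrr2 -2.18, Cyp3a13 -2.06, Vmn2r56 -1.46, Plin4 -1.35, Kirrel2 -1.34, Hr -1.02, Stard9 -1.01, Vmn2r1 -0.952, Cry2 -0.842, Cry1 -0.792, Per1 -0.648, Fgfr3 -0.622, Tfeb -0.6, Tef -0.581, Agt -0.535 and Klf15 -0.469. Cartpt, Chordc1, Fabp7 and Sdf2l1 were called in opposite directions in the 2 lines.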

How the results depend on the processing

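Of the 784 calls in the E1 wild types, 769 were shared with RLE normalization (773 calls) and 707 with no filter on low counts (735 calls). The count was 1453 with DESeq2, 1343 with the likelihood ratio test, 1179 with a GC offset and 1360 with all 15 E1 libraries in 1 model, and ranged from 98 to 2566 when 1 library was left out. Leaving out the third fasted and the second fed library together, chosen after seeing the data, gave 1895 calls. None of the 103 called named genes changed direction under the 14 alternatives. In the E3 wild types, the count was 902 to 3764 with 1 library left out, and 1633 against 2891 in a fit with the replicate block, that is with the replicate numbers of the titles as pairs; nothing in the labels ties equal numbers together. The E1 libraries carry mouse numbers and no shared replicate number. For the line by feeding term, leaving out 1 library gave 1153 to 2833 calls. The genotype by feeding term gave 0 calls with edgeR and DESeq2 under every alternative run, with 1233 genes at an unadjusted p under 0.05 in edgeR. With 3 fasted libraries, differences that missed the threshold are bounded only by their intervals. Low counts limit Top2a, Slc4a1 and Kcne2.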
